A study of Mus musculus with 6 samples.

Results

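The actin, spectrin and tropomodulin cytoskeleton of the newborn mouse lens was described here through 50 listed genes, of which 48 were measured among 18193 genes in all. The listed genes encode actins and the proteins that bind actin monomers, start, cap, coat, crosslink or anchor actin filaments, or build the spectrin network under the cell membrane. Each gene was represented by a single probe set (a group of short probes on the array that report 1 transcript), chosen among those assigned to 1 gene symbol as the brightest on average across the 6 arrays. Diap1, the formin mDia1, was matched through its current symbol Diaph1, and the Arp2/3 subunit genes Arpc3 and Actr2 were not analysed here.

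Whole lenses of Balb/c mice were taken at 2 days of age, and total RNA was hybridised to Affymetrix arrays, 3 for transgenic lenses (T1 to T3) and 3 for wild-type lenses of the same strain and age (W1 to W3). The labels name neither the transgene nor the promoter that drives it, and 12 lenses were used per genotype. No source says that arrays of a genotype represent separate animals, so the p-values speak only of how these 6 samples varied, and that variation may be technical. A whole lens holds an epithelial layer and a mass of fiber cells, and in such bulk RNA fewer cells of a type and less RNA per cell cannot be told apart.

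Actin filaments in lens fiber cells lie mostly under the plasma membrane, where short filaments are joined by spectrin tetramers into a lattice. Tropomodulin caps the slow-growing ends of these filaments and tropomyosin runs along their sides, which together set filament length and stability. Ankyrin, protein 4.1 and adducin tie the lattice to membrane proteins, and this membrane skeleton is known for its part in the hexagonal packing of fiber cells. Epithelial cells carry actin bundles at their basal and apical faces, where caldesmon, myosin and crosslinking proteins are found.

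The promoter sequences below are shown for the called member with the largest rise (Cald1, at the more upstream of its listed starts), the called member with the largest fall (Sptbn1, at both listed starts) and the 2 members whose windows held a CArG box, the site of serum response factor (Actg1 and Vcl). Each covers the 250 bases before a RefSeq transcript start on GRCm38.p6 and is written 5′ to 3′ on the strand of the gene. Capitals mark a CArG box or the forkhead core TGTTTA, which reads as TAAACA on the opposite strand, and each motif was searched on both strands.
Cald1: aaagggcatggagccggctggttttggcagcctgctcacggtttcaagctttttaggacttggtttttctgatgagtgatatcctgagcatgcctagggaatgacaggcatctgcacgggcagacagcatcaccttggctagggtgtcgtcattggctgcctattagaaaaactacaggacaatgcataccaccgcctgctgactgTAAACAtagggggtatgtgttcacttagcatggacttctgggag
Sptbn1, upstream start: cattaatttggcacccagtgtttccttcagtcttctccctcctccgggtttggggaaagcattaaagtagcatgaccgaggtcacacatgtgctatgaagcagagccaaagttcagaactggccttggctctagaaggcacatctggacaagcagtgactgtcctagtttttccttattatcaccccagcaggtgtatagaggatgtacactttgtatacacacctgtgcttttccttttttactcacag
Sptbn1, downstream start: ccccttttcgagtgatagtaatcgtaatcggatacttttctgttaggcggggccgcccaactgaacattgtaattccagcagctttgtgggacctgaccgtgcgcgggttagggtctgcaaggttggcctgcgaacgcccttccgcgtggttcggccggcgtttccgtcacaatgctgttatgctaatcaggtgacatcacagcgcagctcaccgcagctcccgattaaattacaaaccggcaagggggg
Actg1: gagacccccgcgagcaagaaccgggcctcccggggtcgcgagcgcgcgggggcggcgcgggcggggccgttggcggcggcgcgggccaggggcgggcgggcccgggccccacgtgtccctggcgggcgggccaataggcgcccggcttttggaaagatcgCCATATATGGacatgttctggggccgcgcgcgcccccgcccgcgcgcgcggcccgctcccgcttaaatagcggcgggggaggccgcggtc
Vcl: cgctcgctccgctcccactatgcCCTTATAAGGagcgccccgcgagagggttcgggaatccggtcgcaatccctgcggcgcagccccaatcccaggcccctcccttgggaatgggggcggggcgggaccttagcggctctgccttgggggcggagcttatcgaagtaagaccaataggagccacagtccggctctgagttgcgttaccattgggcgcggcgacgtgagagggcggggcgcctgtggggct
The Cald1 window shown lies at chr6:34598254-34598503 on the plus strand, with TAAACA beginning 44 bases before the start. The window at the other listed Cald1 start, chr6:34709194-34709443, is not shown and held neither motif. The Sptbn1 windows lie at chr11:30219773-30220022 and chr11:30198258-30198507 on the minus strand. The Actg1 window is chr11:120348496-120348745 on the minus strand, with the CArG box beginning 90 bases before the start. The Vcl window is chr14:20929148-20929397 on the plus strand, with the CArG box beginning 227 bases before the start. RefSeq windows were found for 44 of the 50 listed genes, 60 windows in all. A CArG box was present in 2 of these 60 (3.33%), against 1.47% of 32851 windows of all genes. The forkhead core was present in 6 of the 60 (10%), in windows of Ank2, Cald1, Rdx, Epb41l2 and Myh9, against 12% of all windows. These matches are a description of letters in the windows, and a window without a match says nothing about binding of the factor.

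Transcript levels are given as quantile-normalised log2 values, so a difference of 1 is a doubling, and levels are compared only between arrays of the same probe set. A gene was called higher or lower when its limma p-value, adjusted by the Benjamini-Hochberg method over all 18193 genes, was under 0.05. In the transgenic lenses 3 of the 48 measured members rose (Cald1, Wasf2 and Synpo), 2 fell (Sptbn1 and Tmod2) and 43 did not pass. The members called higher made up 6.25% of those measured, against 1.93% of all genes, and those called lower 4.17%, against 2.61%, while a single member is 2.08%. In either direction 10.4% of members were called, against 4.55% of all genes. Every measured member reached the median level of all probe sets in at least 1 genotype, and among the 12436 genes that did so 2.59% were called higher, 3.43% lower and 6.01% in either direction. With 5 members called, these shares rest on few genes. When the arrays were only shifted to a common median, 252 genes were called higher and 666 lower, in place of 352 and 475.

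The values of the transgenic and wild-type arrays did not overlap in 17 of 48 members (35.4%), against 28.8% of all genes and 31.8% of the genes that reached the median level. The transgenic arrays lay above in 13 members, where 15.3% of all genes did so, and below in 4, where 13.5% did. An unadjusted limma p under 0.05 was found for 14 members (29.2%), against 22.4% of all genes and 25.7% of those that reached the median level. Both shares lay near this background and are not a result about the members. The median difference of the members, transgenic minus wild-type, was 0.054 on the log2 scale, beside 0.011 for all genes and 0.016 for those that reached the median level, and became -0.0039 when arrays were shifted to a common median. The median size of a difference regardless of sign was 0.178 for the members, 0.139 for all genes and 0.153 for those that reached the median level. The plot of all members gives each difference with its interval.

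**Figure D1:**
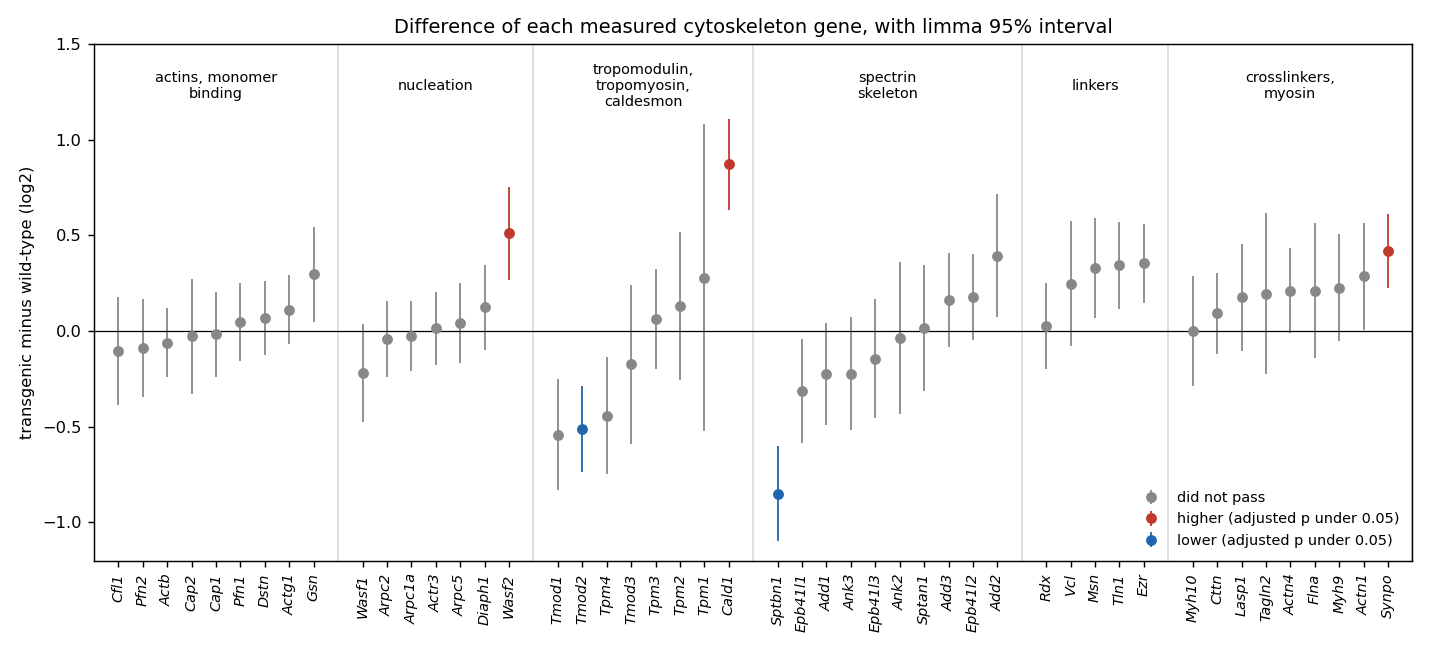
Difference of each of the 48 measured genes, transgenic minus wild-type on the log2 scale, grouped by role along the horizontal axis, with bars for limma's 95% interval over 3 arrays a genotype. Red points rose and blue points fell at an adjusted p under 0.05, and grey points did not pass; Cald1 at 0.87 and Sptbn1 at -0.85 lie farthest from 0.

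Actin itself and the proteins that handle its monomers showed no called change in any of 9 genes. Beta-actin, Actb, stood at 13.43, 13.45 and 13.36 in T1 to T3 and at 13.50, 13.48 and 13.44 in W1 to W3. Its difference of -0.06 had a 95% interval of -0.24 to 0.12, and the groups overlapped. Gamma-actin, Actg1, stood at 13.03, 13.07 and 12.97 in the transgenic and 12.89, 12.93 and 12.92 in the wild-type arrays. All transgenic values of Actg1 lay above the wild-type ones, by a mean of 0.11 with an interval of -0.07 to 0.29. Its brightest probe set carries a suffix that marks probes shared with related transcripts, so Actg1 signal may hold other actins.

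Gelsolin, Gsn, which severs filaments and caps their fast-growing ends, was the member of this group with the lowest p. Its values were 12.52, 12.23 and 12.43 in the transgenic and 11.99, 12.09 and 12.22 in the wild-type arrays. The groups touched without overlapping, and the difference of 0.30 ± 0.11 (SE) did not pass (limma adjusted p = 0.159). This probe set may also bind related transcripts. Over the 6 Gsn probe sets the differences ran from -0.53 to 0.30, and 1 of them, below the median level, was called lower. The filament-disassembling cofilin Cfl1 and destrin Dstn differed by -0.10 and 0.07, and the profilins Pfn1 and Pfn2, which feed actin monomers to growing ends, by 0.05 and -0.09. The cyclase-associated proteins Cap1 and Cap2, which recycle actin monomers, differed by -0.02 and -0.03. All of these overlapped between genotypes.

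Among the listed genes of filament nucleation, Wasf2 rose and the 4 measured Arp2/3 subunits held no call. Wasf2 encodes WAVE2, which switches on the branching complex Arp2/3 at the leading edge of cells. Its values were 10.20, 9.85 and 10.001 in T1 to T3 and 9.51, 9.49 and 9.52 in W1 to W3. Every transgenic array lay above every wild-type array, and the wild-type arrays were nearly level with each other. The difference was 0.51 ± 0.10 (SE), 1.43-fold (limma adjusted p = 0.0386). A further Wasf2 probe set, at 7.004, 6.90 and 7.10 against 6.47, 6.40 and 6.66, rose by 0.49 (limma adjusted p = 0.038 over all probe sets). The call on the brightest probe set was lost when any 1 of the 6 arrays was left out (difference 0.42 to 0.60, limma adjusted p up to 0.129). It was also lost without quantile normalization, on the values as deposited (0.45, limma adjusted p = 0.0628) and with arrays shifted to a common median (0.41, limma adjusted p = 0.0889).

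The Arp2/3 genes Arpc1a, Arpc2, Arpc5 and Actr3 build the complex that branches actin networks. On their brightest probe sets they differed by -0.03, -0.04, 0.04 and 0.01, with intervals that together ran from -0.24 to 0.25. No transgenic and wild-type groups were apart there in these 4 genes. Over all their probe sets the differences ran from -0.25 in Arpc2 to 0.29 in Actr3, with no call. Wasf1, the WAVE1 gene of mostly neural tissue, differed by -0.22, with 7.86, 8.01 and 7.75 in the transgenic and 8.19, 8.17 and 7.92 in the wild-type arrays. The formin gene Diaph1, whose product elongates unbranched filaments, differed by 0.12. Both overlapped between genotypes and did not pass.

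The genes that cap and coat the filament held the largest rise and 1 of the falls. Caldesmon, encoded by Cald1, binds actin and tropomyosin and restrains myosin. It stood at 11.79, 11.56 and 11.50 in T1 to T3 and at 10.79, 10.79 and 10.66 in W1 to W3. The genotypes were separated by a gap wider than the range of either. Cald1 rose by 0.87 ± 0.10 (SE, 95% interval 0.63 to 1.11), 1.83-fold (limma adjusted p = 0.0046). Its brightest probe set may also bind related transcripts, and a unique one at 10.21, 9.98 and 9.96 against 9.35, 9.49 and 9.54 rose by 0.59 (limma adjusted p = 0.022). A further Cald1 probe set differed by 0.54 without passing, and the remaining 2 by 0.16 and 0.17. Of the 5 Cald1 probe sets 4 reached the median level. The Cald1 call was kept with each array left out (0.79 to 0.93) and under each of the 7 other settings tried.

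The tropomodulins lay below wild-type on the brightest probe sets, with a call for Tmod2 alone. Tmod2, the neural tropomodulin, was dim, at 5.65, 5.45 and 5.37 in T1 to T3 and 6.02, 6.04 and 5.94 in W1 to W3, where the median of all probe sets was 5.34. The groups did not overlap. Tmod2 fell by 0.51 ± 0.10 (SE) on the log2 scale (limma adjusted p = 0.0304), and wild-type lenses held 1.43-fold more. Its 5 other probe sets lay below the median level and differed by -0.25 to 0.06, with no call, and their average with the brightest differed by -0.15 (limma adjusted p = 0.432). The Tmod2 call was kept without T1 and lost without any other single array (limma adjusted p up to 0.113).

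Tmod1, the main tropomodulin of lens fibers and red blood cells, stood at 8.94, 8.67 and 8.91 in the transgenic and 9.18, 9.40 and 9.57 in the wild-type arrays. Each transgenic array lay below each wild-type array. The difference of -0.54 ± 0.13 (SE, interval -0.83 to -0.25) was close in size to that of Tmod2 and narrowly missed the threshold (limma adjusted p = 0.0549). Tmod1 passed as a fall in 4 of 7 other settings, which were the values as deposited, arrays shifted to a common median, dim genes left out and the trended robust variance model. Leaving out W1 also brought it past the threshold. Tmod3, the widely expressed tropomodulin, differed by -0.17, with overlapping groups.

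**Figure D2:**
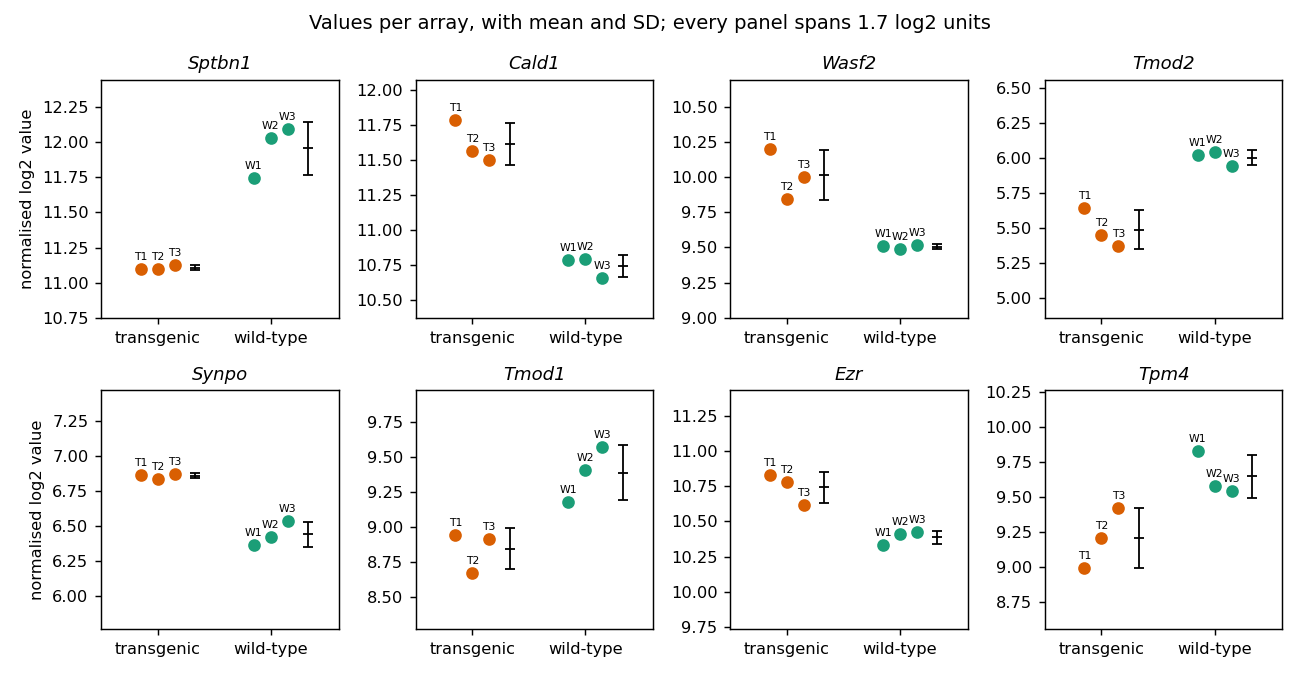
Normalised log2 value of 8 genes in each of the 3 transgenic (orange) and 3 wild-type (green) arrays, with the mean and SD beside each group, in panels that all span 1.7 log2 units. The groups do not overlap in any panel; Sptbn1 shows 3 nearly equal transgenic values, 11.10 to 11.13, below wild-type values of 11.74 to 12.10.

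The tropomyosins held no call, and their brightest probe sets lay on either side of 0. Tpm4, a tropomyosin of the non-muscle cytoskeleton, stood at 8.99, 9.20 and 9.42 in T1 to T3 and 9.82, 9.58 and 9.54 in W1 to W3. All transgenic values lay below the wild-type ones, with a difference of -0.44 ± 0.13 (SE) that did not pass (limma adjusted p = 0.103). Tpm1 stood at 7.64, 8.02 and 9.18 in the transgenic and 8.18, 7.89 and 7.94 in the wild-type arrays. T3 alone was high, which gave a difference of 0.28 with an interval of -0.52 to 1.08. Tpm2 was likewise highest in T3, at 9.28, and differed by 0.13, and Tpm3 by 0.06.

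T3 also differed from the other arrays in markers of tissue outside the lens, whose part in the member values was not tested. All 12 skeletal muscle markers were highest in T3, with summed linear levels of 479, 449 and 9714 in T1 to T3 and 470 to 688 in the wild-type arrays, and the means of Neb and Myog below the median level in both genotypes. All 10 skin markers and all 8 connective tissue and cornea markers were highest in T3 too, at sums of 28648 and 12736, against 461 to 2949 for both lists in the other arrays. T3 was the highest transgenic array in 20 of the 48 members (41.7%), against 31.5% of all genes. Without T3 the differences of Tpm1, Tpm2 and Tpm3 turned to -0.17, -0.04 and -0.01, and that of Tpm4 was -0.55. Without T3, Cald1 differed by 0.93 (limma adjusted p = 0.00554) and Sptbn1 by -0.86 (limma adjusted p = 0.0130).

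**Figure D3:**
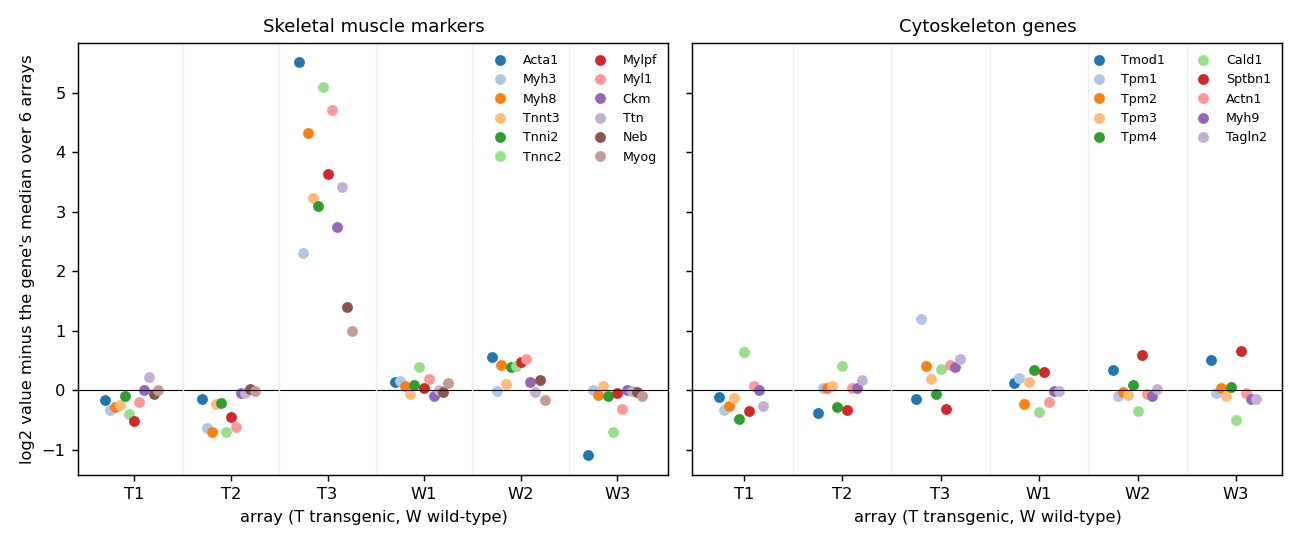
Log2 value minus the gene's own median over 6 arrays, for 12 skeletal muscle markers (left) and 10 cytoskeleton genes (right), by array. Every muscle marker is highest in T3; Tpm1 at 9.18 in T3 stands apart from its other arrays, whereas Cald1 and Sptbn1 separate by genotype.

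In the spectrin membrane skeleton 1 of 10 genes passed, and that gene fell. Sptbn1 encodes beta-II spectrin, the partner of alpha-II spectrin in the lattice under the membrane of most non-erythroid cells. Its brightest probe set read 11.10, 11.10 and 11.13 in T1 to T3 and 11.74, 12.03 and 12.10 in W1 to W3. The transgenic arrays agreed within 0.03 and lay below every wild-type array. Sptbn1 fell by 0.85 ± 0.11 (SE, 95% interval -1.10 to -0.60), so wild-type lenses held 1.80-fold more (limma adjusted p = 0.0064). The call was kept with each array left out (-0.96 to -0.78) and under each of the 7 other settings.

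Of the other 5 Sptbn1 probe sets 4 gave larger falls than the brightest. The next brightest read 8.95, 8.74 and 8.86 against 9.94, 10.29 and 10.35, a difference of -1.34 ± 0.13 (SE). The fourth read 6.49, 6.99 and 6.97 against 8.04, 8.54 and 8.69, a difference of -1.61 ± 0.19 (SE). In all, 5 of 6 Sptbn1 probe sets fell in limma's test over all probe sets, with differences of -0.85, -1.34, -1.25, -1.61 and -1.50. The sixth, the dimmest and below the median level, differed by -0.14.

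Alpha-II spectrin, encoded by Sptan1, showed no called change. Its values were 11.84, 11.88 and 11.76 in T1 to T3 and 11.48, 11.93 and 12.02 in W1 to W3. W1 was the low array of the wild-type group, and the difference of 0.02 had an interval of -0.31 to 0.35. W1 was the lowest wild-type array in 8 of the 10 spectrin skeleton genes, in 24 of all 48 members (50%) and in 41.8% of all genes.

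Adducins cap fast-growing filament ends and recruit spectrin to them. The brightest Add2 probe set read 10.60, 10.44 and 10.28 in the transgenic and 9.77, 10.16 and 10.20 in the wild-type arrays, a difference of 0.39 ± 0.14 (SE) that did not pass (limma adjusted p = 0.151). A dimmer Add2 probe set, at 6.75, 6.39 and 6.48 against 6.96, 7.19 and 7.18, went the other way and fell by 0.57 (limma adjusted p = 0.039). The probe sets of Add2 therefore give no single direction for the gene. Add1 differed by -0.23 and Add3 by 0.16.

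The protein 4.1 genes, whose products strengthen the joint between spectrin and actin, split in direction. Epb41l1 stood at 7.71, 7.60 and 7.51 against 7.70, 8.02 and 8.04, with groups that overlapped through W1 and a difference of -0.31 ± 0.12 (SE, limma adjusted p = 0.166). Epb41l2 differed by 0.18 and Epb41l3 by -0.14. The ankyrins Ank2 and Ank3, adaptors that bind spectrin to membrane proteins, differed by -0.04 and -0.22. None of these passed.

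The linkers between actin and membrane or adhesion sites were all above 0 on the quantile-normalised values of their brightest probe sets. These held no call among 5 genes and a median difference of 0.33. Of all 18193 genes 9521 lay above 0. Over all probe sets the lowest differences of Msn, Vcl and Rdx were -0.03, -0.15 and -0.36, while those of Ezr and Tln1 lay above 0. Ezrin, Ezr, which ties filaments to the apical membrane of epithelia, stood at 10.83, 10.78 and 10.62 in T1 to T3 and 10.33, 10.41 and 10.42 in W1 to W3. The groups were apart, and the difference was 0.35 ± 0.09 (SE, limma adjusted p = 0.0698). Talin, Tln1, which couples integrins to actin, stood at 8.62, 8.53 and 8.51 against 8.11, 8.14 and 8.38 and differed by 0.34 ± 0.10 (SE, limma adjusted p = 0.0940). Moesin, Msn, a relative of ezrin, stood at 9.43, 9.12 and 9.25 against 9.08, 8.81 and 8.92 and differed by 0.33 ± 0.11 (SE, limma adjusted p = 0.144). In all 3 the transgenic arrays lay above the wild-type ones without passing the threshold. Vinculin, Vcl, of focal adhesions differed by 0.25 and radixin, Rdx, the third relative, by 0.03, and Rdx took the other sign without quantile normalization (-0.02) and with arrays shifted to a common median (-0.06).

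Among crosslinkers and non-muscle myosins 1 of 9 genes passed (11.1%), against 4.55% of all genes. On their brightest probe sets 8 of the 9 lay above 0, with a median difference of 0.21. Of all 18193 genes 9521 lay above 0. Synaptopodin, Synpo, an actin-bundling protein best known from kidney podocytes and dendritic spines, stood at 6.87, 6.84 and 6.87 in the transgenic and 6.36, 6.42 and 6.54 in the wild-type arrays. Both groups were tight and did not overlap. Synpo rose by 0.42 ± 0.08 (SE), 1.34-fold (limma adjusted p = 0.0344). A dimmer Synpo probe set differed by 0.01, the average of both by 0.22 (limma adjusted p = 0.123), and the call was lost when any 1 array was left out (0.38 to 0.47, limma adjusted p up to 0.124).

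The alpha-actinin Actn1, which holds filaments in bundles, stood at 7.83, 7.80 and 8.18 against 7.55, 7.69 and 7.71. The transgenic arrays were above, with T3 highest, and the difference of 0.29 ± 0.12 (SE) did not pass (limma adjusted p = 0.215). Actn4, the other alpha-actinin here, differed by 0.21. The filamin Flna, which crosslinks filaments at angles, and the non-muscle myosin heavy chain Myh9 differed by 0.21 and 0.23, and the sister myosin Myh10 by 0.00 with an interval of -0.29 to 0.29. The cortical proteins Cttn and Lasp1 differed by 0.09 and 0.18 and the transgelin Tagln2 by 0.20. T3 was the highest transgenic array in 6 of these 9 genes, and without it Tagln2 differed by 0.0075, Myh9 by 0.10 and Actn1 by 0.16.

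Because many members had more than 1 probe set, every one was also tested on its own. The 48 members had 151 probe sets, of which 10 rose and 9 fell, together 12.6%, against 4.25% of all 34945 probe sets with 1 symbol. Probe sets of a gene share its transcript and are not independent, and Sptbn1 alone gave 5 of these 19 calls. The 34945 were not limited to probe sets that reached the median level, which every member did on its brightest. The 2 shares are therefore not matched for level. For 8 members a probe set other than the brightest was called while the brightest was not. Cttn was an example, with a probe set at 10.75, 10.77 and 10.90 against 10.14, 10.30 and 10.21 that rose by 0.59 (limma adjusted p = 0.013) beside 0.09 for its brightest. Probe sets of Myh9 (0.93) and Tpm1 (0.44) that rose were dim, with means over the 6 arrays of 5.40 and 5.85, and 1 of Gsn that fell (-0.53) lay below the median level. The rising probe sets of Add3 (0.88) and Ezr (0.49) may bind related transcripts, and a unique Lasp1 probe set fell by 0.49 where its brightest differed by 0.18.

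**Figure D4:**
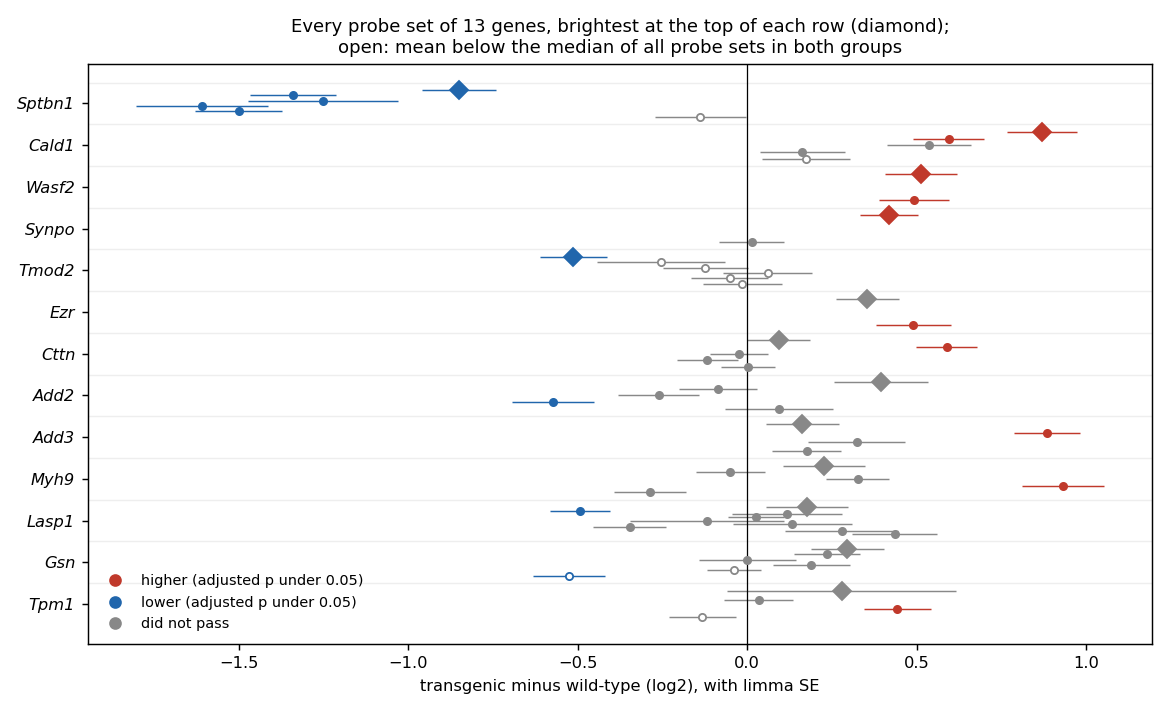
Difference of every probe set of 13 genes, transgenic minus wild-type on the log2 scale with limma's SE, the brightest drawn as a diamond at the top of each row and probe sets below the median level in both genotypes drawn open. Sptbn1 has 5 blue points between -1.61 and -0.85, whereas Add2, Lasp1 and Cttn have probe sets on either side of 0.

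The wider actin pathway was read from a list of 122 further genes, of which 110 were measured. Of these 6 rose and 4 fell, 5.45% and 3.64%, or 9.09% together, and 100 did not pass. Of all genes 1.93% rose and 2.61% fell, 4.55% together, and 6.01% of those that reached the median level were called. On the values as deposited, and with arrays shifted to a common median, the balance turned to 3 higher and 7 lower. The largest rises were in linkers and in an actin. Pdlim1, a PDZ and LIM protein that binds alpha-actinin on stress fibers, stood at 11.13, 11.17 and 11.12 in T1 to T3 and 10.12, 10.41 and 10.51 in W1 to W3. The transgenic arrays were level with each other and above all wild-type arrays, a rise of 0.79 ± 0.11 (SE, limma adjusted p = 0.0105). The Pdlim1 call was lost only without T2 (limma adjusted p = 0.0536) and was kept under each of the 7 other settings.

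Acta2, smooth muscle alpha-actin, stood at 8.55, 9.002 and 9.12 against 7.95, 7.99 and 7.84 and rose by 0.97 ± 0.15 (SE, limma adjusted p = 0.0148), a call lost without T2, W2 or W3. The groups were apart, and without T3 the rise was 0.85. This probe set may bind related transcripts, the 2 unique probe sets of Acta2 were below the median level and differed by 0.44 and 0.10 with no call, and the average over its probe sets rose by 0.50 (limma adjusted p = 0.0186). Of 8 other smooth muscle and pericyte markers 7 lay above 0 with no call. Their summed linear levels ran from 1669 to 2059 in the transgenic and 1336 to 2046 in the wild-type arrays, and the ranges overlapped. Rgs5, the brightest of them, made up most of each sum. It stood at 10.60, 10.27 and 9.99 in T1 to T3 and 10.64, 9.74 and 9.99 in W1 to W3. The overlap of the sums is therefore largely that of Rgs5. In Des (0.80), Tagln (0.33) and Cspg4 (0.35) of this list every transgenic array lay above every wild-type array, without a call, and Myh11 and Cnn1 lay below the median level in both genotypes. The part of such cells in the Acta2 value was not tested.

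The other genes of the list that rose were Cfl2, a cofilin, by 0.47, Wasl, the Arp2/3 activator N-WASP, by 0.50, Parva, which joins integrin-linked kinase to actin, by 0.54, and Macf1, which links actin to microtubules, by 0.42. Their limma adjusted p-values ran from 0.0267 to 0.0318, and in each the transgenic arrays lay above the wild-type ones. Wasl stood at 8.37, 8.36 and 8.57 against 7.93, 8.01 and 7.85 and, like the member Wasf2, encodes an activator of Arp2/3. Their relatives Wasf1, Wasf3 and Was differed by -0.22, -0.10 and 0.14, with no call. The calls of Cfl2, Wasl and Macf1 were lost when any 1 array was left out and that of Parva was kept only without T3, with limma adjusted p up to 0.119. On the values as deposited and with arrays shifted to a common median, Wasl, Parva and Macf1 did not pass. These genes and Cfl2 also did not pass with the probe sets of each gene averaged or with the replicate number as a block. Over the 7 other settings the smallest differences of Wasl, Parva and Macf1 were 0.15, 0.27 and 0.15. The Parva probe set may bind related transcripts.

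The genes that fell were Gypc, a glycophorin that anchors protein 4.1, by 0.59, Fscn1, which bundles parallel filaments, by 0.50, Evl, a filament-elongating protein of the Ena/VASP family, by 0.37, and Tagln3, a neural transgelin, by 0.80. Their limma adjusted p-values ran from 0.0267 to 0.0414. Fscn1 stood at 11.47, 11.37 and 11.27 against 11.96, 11.85 and 11.79, and Gypc was dim, at 5.27, 4.996 and 5.19 against 5.61, 5.77 and 5.86. With 1 array left out, the calls of Fscn1 and Evl were always lost, that of Tagln3 was kept only without T3 and that of Gypc only without T3 or W1, with limma adjusted p up to 0.142. Of 11 measured neural retina markers 10 lay below 0 and 2 of them, Elavl4 (-0.72) and Sncg (-0.84), fell. Their summed linear levels were 1901, 3163 and 2304 in the transgenic and 3995, 3415 and 2419 in the wild-type arrays, and the ranges overlapped. Tagln3 stood at 7.40, 7.98 and 7.89 in T1 to T3, and the dim Tmod2 at 5.65, 5.45 and 5.37. The part of retinal tissue in the Tagln3 and Tmod2 values was not tested. The 6 further genes with the lowest p did not pass: Afdn (0.39), Myl12a (0.37), Tjp1 (-0.54), Rock1 (0.41), Ctnna1 (-0.37) and Epb42 (0.36), with limma adjusted p from 0.058 to 0.0819.

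Markers of the lens itself were well detected. All 9 measured fiber markers and all 8 epithelial markers reached the median level of all probe sets. Of the 9 fiber markers 6 lay below 0, and 1 of them, the beaded filament gene Bfsp1, fell (-1.66). Bfsp2 (-0.45, limma adjusted p = 0.0549), Gja3 (-0.32), Lim2 (-0.16), Crygd (-0.10) and Crygs (-0.06) lay below 0 without passing, and 3 markers lay above. The summed linear levels of the fiber markers were 119064 to 127438 in the transgenic and 135046 to 139064 in the wild-type arrays. Without Bfsp1 the sums were 115524 to 123038 and 123277 to 125239, still without overlap, so that gene made up most of the gap. Quantile normalization gives every array the same set of values by rank, which leaves the brightest markers little room to differ. Cryaa read 14.54 in each of T1 to T3, and Lim2 13.90 in each of W1 to W3. The fiber sums can therefore say little about fiber content. Of the 8 epithelial markers 6 lay above 0, and of these the transcription factor gene Foxe3 (4.64) and Itga6 (0.61) rose. Gja1 (0.52), Clu (0.23), Pitx3 (0.17) and Cdh1 (0.15) lay above 0 and Pax6 (-0.22) and Dkk3 (-0.31) below, all without passing. The epithelial sums were 28937 to 30514 against 17426 to 18984, a gap that Foxe3 carried almost alone: without it they were 18217 to 19574 against 16962 to 18611 and overlapped. Of 7 endothelial markers Tek rose (0.49), and 5 of the 7 lay below 0. The part of these shifts in the member values was not tested.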

How the data were processed

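Total RNA of 3 transgenic and 3 wild-type whole-lens samples was hybridised to 1 Affymetrix array each. Per array, the deposited table gave each probe set a log2 value, a scale read from the values' range; how the authors summarised and normalised them is not given in the sources used here. After 64 control probe sets were set aside, 45037 were quantile normalised, since upper quartiles differed by 0.12. Gene symbols came from GEO's annotation of the platform and were brought up to date with RefSeq's GRCm38.p6 gene table by identifier (99.4% matched). Each of 18193 genes took its brightest single-symbol probe set. Genotypes were compared with limma 3.58.1 in R 4.3.3 (lmFit, eBayes, prior of 3.80 degrees of freedom), with p-values adjusted across the 18193 genes (Benjamini-Hochberg) and called under 0.05; the scripts were tested on simulated data. Errors are limma's moderated standard errors. Values in every array are given for members with an unadjusted p under 0.05; of the other pathway genes, those called and the next 6 by p are named. Actb, Actg1, Wasf1, Tpm1 and Sptan1 are given in addition, chosen after their values were seen. Alternatives were the values as deposited, a common median, dim genes left out, averaging the probe sets of each gene, testing each probe set separately, a trended robust variance model, a replicate block and each array left out. Members, lists and tests were chosen with earlier results of these data known. Promoter windows came from RefSeq. The number of arrays limits the precision.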

Additional observations from a re-analysis of the deposited data

How the results depend on the processing

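The calls of Cald1 and Sptbn1 were kept under all 13 alternatives, and those of Wasf2, Tmod2 and Synpo were not. With 1 array left out, 1 member was called higher and 1 to 2 lower, 0 to 3 other pathway genes higher and 0 to 3 lower, and the median member difference ran from 0.015 to 0.093; fewer arrays were tested there. On the values as deposited and with a common median, 3 other pathway genes were higher and 7 lower. The median member difference was -0.0039 with a common median and 0.022 with the probe sets of each gene averaged, where 1 member was lower and 3 other pathway genes were higher. Deviations of same-numbered arrays correlated at -0.05, 0.08 and 0.03. T2 and T3 each correlated best with the wild-type array of the same number, and T1 with W3 (0.07). With 3 arrays a genotype these values cannot say whether replicate numbers pair the samples. With the replicate number as a block, 1 member was higher and 1 lower, 1 other pathway gene was higher and 0 lower, and 69 genes were higher and 154 lower in all, against 352 and 475. The calls of Wasf2, Tmod2, Synpo and Acta2 were lost with this block, at limma adjusted p of 0.0885, 0.0781, 0.0949 and 0.0573. No called member changed sign under any alternative. Members that were not called did. On the values as deposited Arpc5 was at -0.021, Actr3 at -0.046, Sptan1 at -0.036 and Rdx at -0.023. With a common median Arpc5 was at -0.058, Actr3 at -0.083, Tpm3 at -0.010, Sptan1 at -0.073 and Rdx at -0.060. With the probe sets of a gene averaged Actb was at 0.022, Tmod3 at 0.012, Tpm3 at -0.17, Sptan1 at -0.084, Add2 at -0.087 and Myh10 at 0.019. With 1 array left out, ranges that crossed 0 were -0.19 to 0.0091 for Cfl1, -0.076 to 0.041 for Cap1, -0.15 to 0.054 for Cap2, -0.026 to 0.059 for Actr3, -0.056 to 0.0031 for Arpc1a, -0.051 to 0.072 for Rdx, -0.079 to 0.12 for Myh10, -0.15 to 0.12 for Sptan1, -0.17 to 0.60 for Tpm1, -0.043 to 0.29 for Tpm2, -0.011 to 0.15 for Tpm3 and -0.20 to 0.10 for Ank2. The cause was not tested. Dim probe sets such as those of Tmod2 and Gypc lie near the background of the array, which limits what their differences can show.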
